A study of Mus musculus with 8 samples.

Results

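The genes described here are 8 regulators of the renal lineage: the paired-domain factors Pax2 and Pax8, the zinc-finger factors Gata2 and Gata3, the LIM homeodomain factor Lhx1, the homeodomain factor Emx2, the POU factor Pou3f3 and the AP-2 factor Tfap2b. They were taken as a named list, and every array probe whose RefSeq accession maps to one of them was used. This gave 13 probes of the 41174 non-control probes on the array, and 8 of the 17305 genes with a symbol. All 13 were among the 39520 probes that passed the filter on dim spots (a signal clear of background, in either channel, on 4 or more of the 8 arrays).

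Whole kidneys of mouse embryos at E13.5 were compared between wild type and mutants labelled UB HDAC1,2-/-, in which both histone deacetylase genes are lost from the ureteric bud. The strain of both groups is given as a CD1 and C57BL/6 mix, and no treatment is named. The Cre driver of the deletion and any allele carried by the wild type embryos are not given in the sources used here. In each of the 4 biological replicates, a mutant RNA and a wild type RNA, labelled from 0.5 µg of total RNA, shared 2 two-colour Agilent arrays that differ in which RNA carries which dye. The series thus holds 8 RNAs on 8 arrays. This follows the labels of the single samples; the design text of the series speaks instead of dye swaps on 2 of 4 arrays, and the difference is not settled. Replicates 1 and 2 lay on 1 slide, and replicates 3 and 4 on another.

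The nephric duct and the kidney mesenchyme arise from intermediate mesoderm in which Pax2 and Pax8 act together, and Gata3 and Lhx1 act with and downstream of them in the duct. The duct sends out the ureteric bud, whose epithelium expresses these factors and Emx2, while Gata2 is known from the urogenital mesenchyme and mesonephric duct as well as from blood and vessel precursors. Mesenchyme induced by the bud forms nephrons, in which Pax2, Pax8, Lhx1 and Pou3f3 are expressed again and Tfap2b marks future distal segments. In RNA from whole kidneys, fewer cells of a type and less RNA per cell cannot be told apart.

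The promoter sequences of Gata2 and Gata3 are shown because these GATA factors gave the smallest p-values among the 8 genes. They are the 250 bases before each RefSeq start in GRCm38.p6, written 5′ to 3′ on the strand of the gene, with matches to any searched motif in capitals.
Gata2, first listed start, chr6:88193641-88193890, plus strand: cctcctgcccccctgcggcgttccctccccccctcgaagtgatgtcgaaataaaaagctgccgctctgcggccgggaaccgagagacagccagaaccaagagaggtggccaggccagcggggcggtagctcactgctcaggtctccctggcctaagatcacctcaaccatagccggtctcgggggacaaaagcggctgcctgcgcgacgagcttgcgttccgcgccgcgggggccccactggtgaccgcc
Gata2, second listed start, chr6:88198414-88198663, plus strand: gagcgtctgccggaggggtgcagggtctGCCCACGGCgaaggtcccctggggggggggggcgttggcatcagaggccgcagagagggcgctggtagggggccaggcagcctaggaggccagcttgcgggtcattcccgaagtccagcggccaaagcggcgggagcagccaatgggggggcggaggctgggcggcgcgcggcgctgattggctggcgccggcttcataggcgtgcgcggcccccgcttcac
Gata3, chr2:9878601-9878850, minus strand: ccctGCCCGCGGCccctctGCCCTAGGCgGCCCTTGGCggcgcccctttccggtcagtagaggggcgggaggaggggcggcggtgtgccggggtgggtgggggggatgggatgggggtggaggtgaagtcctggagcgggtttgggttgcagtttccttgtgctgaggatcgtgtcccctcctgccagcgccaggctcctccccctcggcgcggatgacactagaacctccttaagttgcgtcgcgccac
The Gata2 windows had GC contents of 67.2% and 74% with 22 and 24 CpG dinucleotides, and the Gata3 window had 70% with 19, against medians of 52.4% and 6 over 32851 RefSeq windows of the same length. The 8 genes have 11 such windows, which ranged from 46.4% to 74% GC and from 5 to 26 CpG. The letters GCCNNNGGC, the palindrome bound by AP-2 factors, were present in 13.7% of all windows and in 3 of the 11: at bases 5 to 13, 20 to 28 and 30 to 38 of the Gata3 window, at bases 29 to 37 of the second Gata2 window, and at bases 143 to 151 of 1 Pax2 window. The GATA letters GATAA, searched on both strands, were present in 22.6% of all windows and in 1 of the 11, at bases 246 to 250 of the Pax8 window. The paired-domain letters GTCACGC (1.78% of windows), the homeodomain letters TAATTA (4.84%) and the octamer ATGCAAAT (1.6%) were present in none of the 11. These matches describe letters only; binding was not measured here.

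Ratios are given as log2 of the labelled mutant over the labelled wild type, with the 2 dye orientations of a replicate averaged, so that n = 4. The direction follows the dye labels. The authors' deposited table of selected genes runs the other way: of its 309 entries that match a single probe, 309 have the opposite sign, so the direction of every ratio below is that of the labels and is not settled. None of the 8 genes is in the authors' deposited table. Hdac2, a targeted gene, had log2 ratios of 0.60, 0.60, 0.74 and -0.61 in replicates 1 to 4 (mean 0.33 ± 0.63 SD, n = 4, limma adjusted p = 0.758), so the library labelled mutant was above its labelled wild type partner in 3 of 4 replicates. Whether the Hdac2 probe lies in the deleted part of the gene is not given in the sources used here, and Hdac1 was not analysed here.

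No spot was saturated, and between 79.2% and 97.1% of spots per array and channel were well above background. Replicate 2 stood apart: the SD of the log2 ratios over all tested probes was 0.648 there, against 0.227 to 0.276 in the other 3. The number of arrays limits the precision. On data simulated for 39520 probes with 4 replicates, the test recovered 0% of changes of 0.5 on the log2 scale, 37.3% of changes of 1 and 71.2% of changes of 2.

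The mean ratios of the renal regulators were small, but their intervals were wide. The largest mean ratio among the probes well above background on every array was 0.41, a fold of 1.33. It was shared by Gata2, Gata3 and Pou3f3, while Pax2, Pax8 and Lhx1 had means from -0.03 to 0.06. The 95% intervals of the limma fit were 0.17 to 0.65 for the brightest Gata2 probe and 0.07 to 0.75 for Gata3. They were 0.05 to 0.78 for the brightest Pou3f3 probe, -0.29 to 0.23 for Pax2, -0.26 to 0.37 for Pax8 and -0.18 to 0.30 for Lhx1. The RNA came from whole kidneys, and whether these genes changed within the bud was not tested. With limma and Benjamini-Hochberg adjustment over all tested probes, 0 of the 13 probes passed an adjusted p of 0.05, and 7 probes of the whole array did (0.0177%). At an unadjusted p under 0.05, 5 of the 13 probes, from 4 genes, passed, against 6.01% of all probes. Higher in the labelled mutant were 1 probe each of Gata2, Gata3, Emx2 and Pou3f3 (3.15% of all probes passed in that direction), and lower was the other Pou3f3 probe (2.86%). None of the 5 reached the 1.4-fold change that 2.11% of all probes reached together with that p. The same sign in 4 of 4 replicates was seen for 4 of the 13 probes, against 16.4% of all probes, and a mean ratio above 0 for 8 of the 13, against 53.9%.

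Taking the brightest probe of each gene, 6 of the 8 genes lay above 0 and 2 below, with a median of 0.20 and a range from -0.03 to 0.41. Over 17114 named genes measured the same way, 58.4% lay above 0 and the median was 0.04. The median of the 8 genes was 0.29, 0.21, 0.10 and 0.11 in replicates 1 to 4, and that of all named genes was -0.01, 0.12, 0.04 and 0.06. The median depended on which probe stood for a gene: with the mean of all probes of each gene it was 0.06, and with spot medians corrected by normexp (offset 50) and loess in place of the scanner ratios it was 0.10.

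**Figure D1:**
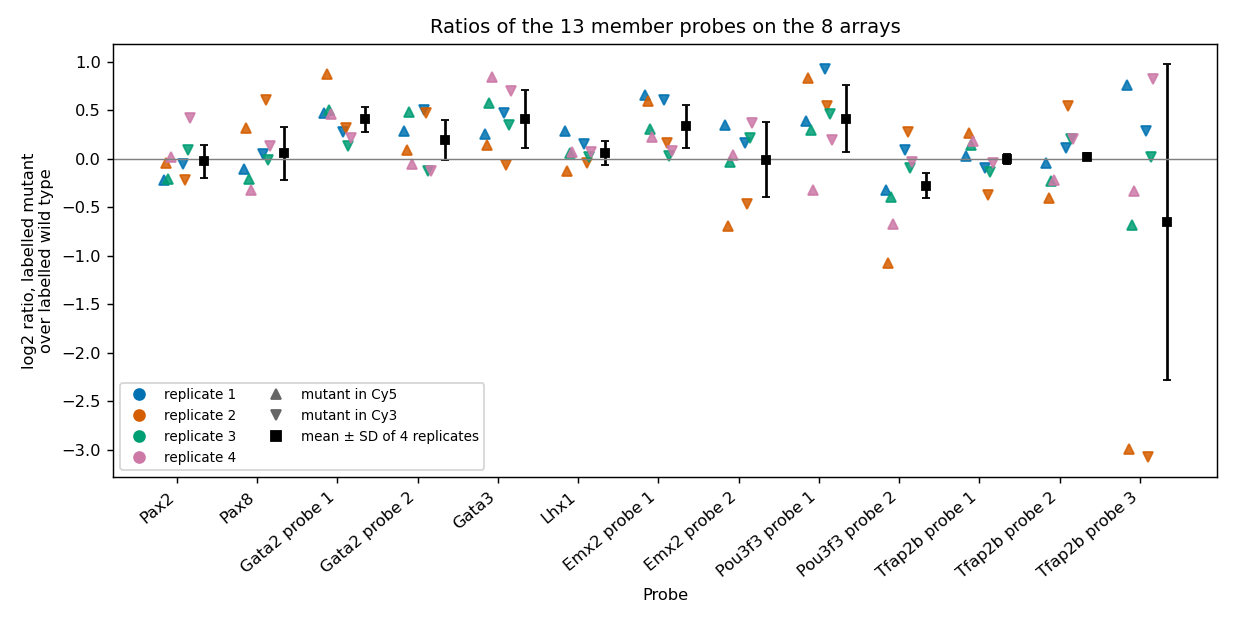
Log2 ratio of the labelled mutant over the labelled wild type (y axis) for each of the 13 probes of the 8 genes (x axis). Each point is 1 array, coloured by replicate and shaped by dye orientation, and squares give the mean and SD over 4 replicates. Tfap2b probe 3, which was not well above background on every array, spreads far beyond the others. The 8 points of Gata2 probe 1 lie between 0.13 and 0.88, and those of Pax2 between -0.22 and 0.42.

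The plot of log2 ratios by probe shows the 4 probes with means between 0.33 and 0.41, their neighbours around 0, and the probes of 1 gene that fall on different sides of 0. For genes with several probes, the probes are numbered by brightness.

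Pax2 and Pax8, the paired-domain factors that open the renal programme, did not separate the groups. Pax2 (probe A_51_P375526, printed in 10 spots per array) had levels, as log2 processed signal, of 6.24, 6.72, 6.52 and 6.63 in the labelled mutant RNAs of replicates 1 to 4 and of 6.38, 6.85, 6.58 and 6.41 in the labelled wild type RNAs. The groups overlap throughout, and replicate 4 is the one pair in which the labelled mutant was higher. The mean log2 ratio was -0.03 ± 0.17 (SD, n = 4; 95% interval of the limma fit -0.29 to 0.23, adjusted p = 0.922). Single Pax2 spots of 1 array had an SD of 0.0471 to 0.222 (median 0.128), and each array value is the mean of 7 to 10 spots.

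Pax8 (A_51_P381297) had levels of 8.44, 8.57, 8.54 and 8.75 in the labelled mutants and of 8.47, 8.11, 8.65 and 8.84 in the labelled wild types. Its log2 ratios were -0.03, 0.46, -0.11 and -0.09. Replicate 2 alone was high, through a labelled wild type level below the other 7 RNAs, and the other 3 pairs lay just under 0. The mean ratio was 0.06 ± 0.27 (95% interval -0.26 to 0.37, adjusted p = 0.868), and -0.08 without replicate 2.

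Lhx1, which acts in the duct, the bud tip and the renal vesicle, was measured by a probe with 10 spots per array (A_51_P452119). The labelled mutant levels were 12.50, 12.43, 12.51 and 12.38, and the labelled wild type levels 12.28, 12.52, 12.47 and 12.31. All 8 RNAs lay between 12.28 and 12.52, and the groups overlap. The mean log2 ratio was 0.06 ± 0.13 (95% interval -0.18 to 0.30, adjusted p = 0.808).

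Gata3, a target of Pax2 and Pax8 that guides the nephric duct, was higher in the labelled mutant in 4 of 4 replicates (A_52_P546363). Its labelled mutant levels were 12.01, 12.05, 12.02 and 12.14, and its labelled wild type levels 11.65, 12.02, 11.56 and 11.37. The labelled mutant RNAs lay close together (SD 0.0593) and the labelled wild type RNAs spread more (SD 0.271). The labelled wild type RNA of replicate 2 sat among the labelled mutants, so 3 of the 4 labelled mutants were above every labelled wild type. The log2 ratios were 0.37, 0.04, 0.46 and 0.77, with a mean of 0.41 ± 0.30 (fold 1.33, 95% interval 0.07 to 0.75, adjusted p = 0.758 by limma; exact sign-flip permutation p = 0.125). The mean was 0.20 on the slide of replicates 1 and 2 and 0.62 on the slide of replicates 3 and 4, a difference that did not pass the test (limma adjusted p = 0.951). Leaving out replicate 2 gave 0.53, and leaving out replicate 4 gave 0.29. The unadjusted call at 0.05 held without replicate 2 and was lost without replicate 1 (0.42), 3 (0.39) or 4 and with normexp and loess (0.34).

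For Gata2, the groups separated on probe 1 (A_51_P516625) alone. Its levels were 11.39, 11.87, 11.69 and 11.49 in the labelled mutants and 11.01, 11.27, 11.37 and 11.15 in the labelled wild types. Every labelled mutant RNA lay above every labelled wild type RNA, the closest being 11.39 and 11.37. It was the one probe of the 13 without overlap, against 2.25% of all probes. The log2 ratios of 0.38, 0.60, 0.32 and 0.34 gave a mean of 0.41 ± 0.13 (fold 1.33, 95% interval 0.17 to 0.65), and 8 of 8 arrays were above 0. The unadjusted limma p was 0.00607, rank 420 of 39520 probes, and the adjusted p was 0.570. An exact two-sided sign-flip permutation test gave 0.125, the smallest p that 4 replicates allow. The ratio was 0.58 with the labelled mutant in Cy5 and 0.24 with it in Cy3.

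The second Gata2 probe (A_52_P233441) gave a mean log2 ratio of 0.19 ± 0.21 (adjusted p = 0.758). Its ratios fell on both sides of 0, at 0.40, 0.28, 0.18 and -0.09, and its groups overlap, with labelled mutant levels of 10.87 to 11.24 and labelled wild type levels of 10.48 to 11.14. The probes of Gata2 therefore share the sign of their mean and differ in whether replicate 4 is above 0. Their 95% intervals overlap (-0.09 to 0.47 for the second probe).

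**Figure D2:**
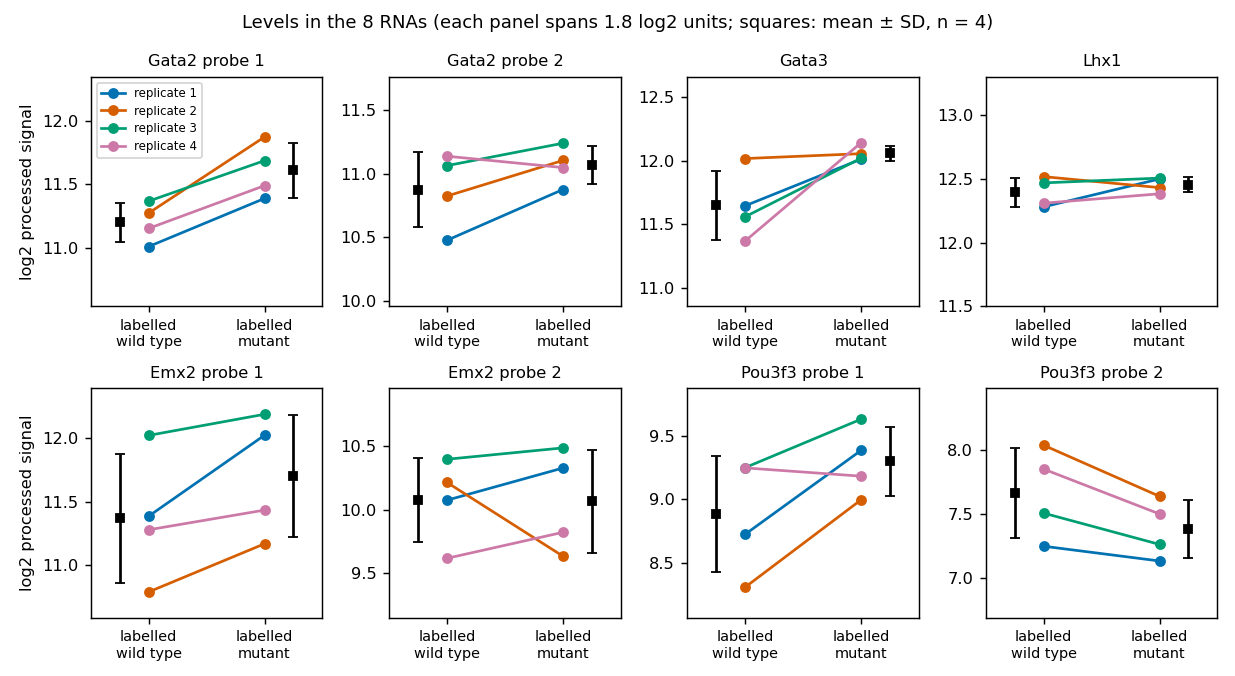
Level (log2 processed signal, y axis, the same span in each panel) of 8 probes of Gata2, Gata3, Lhx1, Emx2 and Pou3f3 in the labelled wild type and labelled mutant RNAs, with a line joining the RNAs of a replicate and squares for the group mean and SD (n = 4). The lines of Gata2 probe 1 all rise from the range 11.01 to 11.37 to the range 11.39 to 11.87, and those of Lhx1 are nearly flat around 12.4.

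In the plot of levels by RNA, the slope of each line is the ratio of that replicate. The lines of Emx2 probe 1 start at different levels and all slope upwards, at different steepness. Those of Emx2 probe 2 and Gata2 probe 2 slope in both directions.

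Emx2, a homeodomain factor needed by the bud epithelium for its growth and branching, was measured by 2 probes that disagree. Probe 1 (A_52_P455251) had levels of 12.02, 11.17, 12.19 and 11.43 in the labelled mutants and of 11.39, 10.79, 12.02 and 11.28 in the labelled wild types. The replicates differed more from each other than the genotypes did, so the groups overlap although the labelled mutant was higher in every pair. The log2 ratios of 0.64, 0.38, 0.17 and 0.15 had a mean of 0.33 ± 0.23 (fold 1.26, 95% interval 0.04 to 0.62, adjusted p = 0.758), and 8 of 8 arrays were above 0.

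Probe 2 of Emx2 (A_52_P462837) had log2 ratios of 0.25, -0.58, 0.09 and 0.20. Replicate 2 was the low one here, and it was among the high ones for probe 1. The mean of probe 2 was -0.01 ± 0.39 (95% interval -0.41 to 0.39, adjusted p = 0.985), and 0.18 without replicate 2. With normexp and loess, the mean of probe 1 was 0.15, which ended its unadjusted call. That call was also lost without replicate 1 (0.23) or replicate 3 (0.39) and with Cy3 arrays alone (0.22).

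Pou3f3, a POU factor of the forming nephron that patterns its later loop and distal parts, had probes of opposite sign. Probe 1 (A_52_P1008476) had levels of 9.38, 8.996, 9.63 and 9.18 in the labelled mutants and of 8.73, 8.31, 9.25 and 9.25 in the labelled wild types. The labelled mutant was the higher in replicates 1, 2 and 3 and just the lower in replicate 4. The log2 ratios of 0.66, 0.69, 0.38 and -0.06 had a mean of 0.41 ± 0.35 (fold 1.33, 95% interval 0.05 to 0.78, adjusted p = 0.758). The mean was 0.67 on the slide of replicates 1 and 2 and 0.16 on the other (adjusted p of the difference = 0.951), and 0.21 with normexp and loess, which ended its unadjusted call. That call was also lost without replicate 1 (0.33), 2 (0.32) or 3 (0.43) and with Cy5 arrays alone (0.30). None of the 13 probes differed between the slides at an unadjusted p under 0.05, against 2.61% of all probes.

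Probe 2 of Pou3f3 (A_51_P462657) had log2 ratios of -0.12, -0.40, -0.25 and -0.35, below 0 in 4 of 4 replicates. Its mean was -0.28 ± 0.13 (fold 1.21 lower, 95% interval -0.52 to -0.04, adjusted p = 0.758), and its groups overlap (labelled mutant levels 7.13 to 7.64, labelled wild type 7.25 to 8.04). The sign came from 1 dye orientation. With the labelled mutant in Cy5 the 4 arrays gave -0.32, -1.08, -0.40 and -0.67, and with it in Cy3 they gave 0.09, 0.28, -0.09 and -0.03. The difference between the orientations, -0.68, was matched or exceeded in size by 2.59% of all tested probes, whose median absolute difference was 0.204. Its unadjusted call was lost without replicate 3 (-0.29) or 4 (-0.25), with the slide as a block (-0.28), with Cy3 arrays alone, and with the 8 arrays entered with a replicate block (-0.28). The mean weighs both orientations equally.

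**Figure D3:**
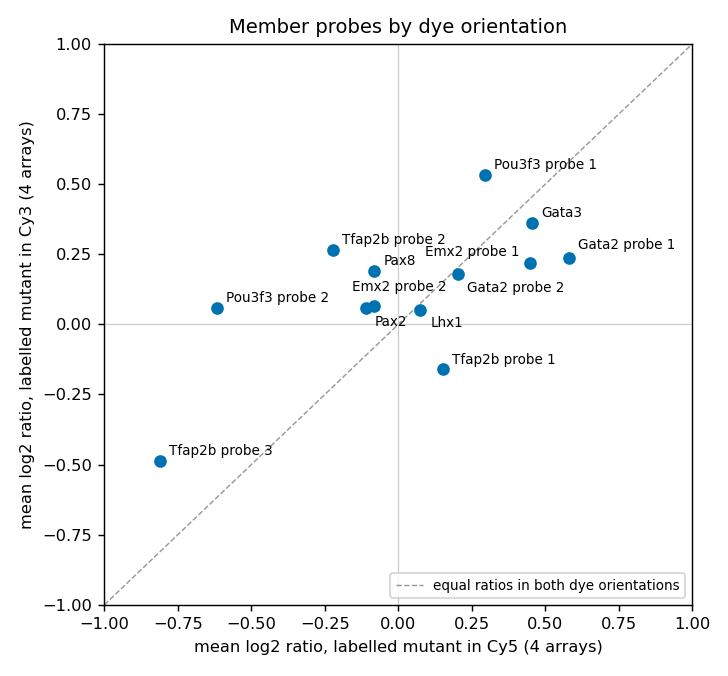
Mean log2 ratio of the 4 arrays on which Cy5 marked the labelled mutant (x axis) against that of the 4 on which Cy3 did (y axis), 1 point per probe, with a dashed line where both are equal. Gata3, both Gata2 probes, Emx2 probe 1 and Pou3f3 probe 1 lie above 0 on both axes, while Pou3f3 probe 2 lies at -0.62 and 0.06.

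The plot of dye orientations separates probes whose ratio kept its sign when the dyes were exchanged from those whose ratio did not. Of the 5 probes at an unadjusted p under 0.05, Pou3f3 probe 2 is the one that changed sign. Among the others, Pax2, Pax8, Emx2 probe 2 and Tfap2b probes 1 and 2 changed sign between orientations.

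Tfap2b, an AP-2 factor of the distal nephron, had 2 probes with a smaller spread over replicates than any probe of the other 7 genes. Probe 1 (A_52_P352771) had log2 ratios of -0.03, -0.05, 0.00 and 0.07, and probe 2 (A_51_P248345) of 0.03, 0.07, -0.01 and 0.00. Both means lay at 0 (-0.00 ± 0.05, adjusted p = 0.988, for probe 1 and 0.02 ± 0.04, adjusted p = 0.925, for probe 2), with 95% intervals of -0.22 to 0.21 and -0.19 to 0.24. This closeness was reached after averaging dye orientations that differed. Probe 1 gave 0.15 with the labelled mutant in Cy5 and -0.16 with it in Cy3, and probe 2 gave -0.22 and 0.27.

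Probe 3 of Tfap2b (A_51_P248344) was dim, clear of background on 3 of 8 arrays for the labelled mutant and on 6 of 8 for the labelled wild type. Its log2 ratios were 0.52, -3.04, -0.33 and 0.25 (mean -0.65 ± 1.63, adjusted p = 0.758). The low value of replicate 2 appeared on both of its arrays, at -2.99 and -3.08, through a labelled wild type level of 6.74 where the other labelled wild types lay between 3.73 and 4.67. Without replicate 2 the mean was 0.15.

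Other members of the same families were described by counts and medians, each checked under normexp with loess, median centring and leaving out each replicate. Of the 7 other Pax genes, 2 lay above 0 and 5 below (median -0.09, and -0.13 to -0.02 under those settings), and 0 passed an unadjusted p of 0.05, where 4.14% of named genes passed as higher and 1.95% as lower. Of the 4 other Gata genes, 1 lay above 0 and 3 below (median -0.13), and the median turned to 0.07 without replicate 2. Gata6 had a mean of -0.22 ± 0.14 on its brightest probe, below 0 in 4 of 4 replicates, and up to 0.05 on others, and did not pass. Gata1, the erythroid factor of the family, had log2 ratios of 0.18, -1.58, -0.08 and 0.05, and Gata4, a gonadal and cardiac factor, of 0.15, 0.07, 0.07 and 0.06.

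Of 10 measured LIM homeobox genes, 7 lay above 0 and 3 below (median 0.05, and -0.03 with normexp and loess), and 1, Isl2, was lower at an unadjusted p under 0.05 (mean -0.62 ± 0.18), with signals clear of background on 4 of 8 arrays in each group. The 3 other class 3 POU genes had means from 0.04 to 0.12, and Emx1 had 0.01, which changed sign under normexp with loess, under centring and without replicate 1 or 4. Of the 4 other AP-2 genes, 1 lay above 0 and 3 below (median -0.35, and 0.02 without replicate 2). Tfap2c was lower in 4 of 4 replicates, at -0.92, -0.24, -0.53 and -0.41 (mean -0.52 ± 0.29, lower at an unadjusted p under 0.05), and no gene of these families passed the adjusted threshold.

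Cofactors of these regulators lay on both sides of 0. Of 14 measured cofactors, 6 lay above 0 and 8 below, with a median of -0.02 that turned above 0 when replicate 1, 3 or 4 was left out. Kdm6a, a histone demethylase that acts with Pax-bound complexes, was the 1 cofactor at an unadjusted p under 0.05 (mean 0.45 ± 0.43, higher, with replicate 2 at 1.07). Zfpm2, a partner of Gata factors, had a mean of -0.49 ± 0.57, Tle1, a corepressor, had -0.30 ± 0.34, and Eya1, which works with Pax2 in the mesenchyme, had -0.24 ± 0.26. None of these 3 passed.

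Genes that act beside or downstream of the 8 regulators in the duct and bud included larger differences than the regulators themselves. Of 28 measured, 17 lay above 0 and 11 below (median 0.04, and -0.01 without replicate 3), beside a median of 0.04 over all named genes, of which 58.4% lay above 0. At an unadjusted p under 0.05, 6 were higher and 0 lower, against 4.14% and 1.95% of named genes, and 0 passed the adjusted threshold. Like the other lists here, this one was chosen with earlier results of these data known, so its counts are a description. Elf5, an ETS factor of epithelia, had a mean log2 ratio of 1.29 ± 0.18 (adjusted p = 0.0639), and Plac8, a gene of the nephric duct, of 0.94 ± 0.25 (adjusted p = 0.177). Tfcp2l1, a factor of the collecting duct, had 1.13 ± 0.08 on its brightest probe (adjusted p = 0.0578) and down to 0.21 on others, and Grhl2 had 0.60 ± 0.16 with other probes down to -0.01.

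In the early nephron, where Pax8, Lhx1 and Pou3f3 act, 16 of 23 measured genes lay above 0 and 7 below (median 0.17), 5 were higher and 2 lower at an unadjusted p under 0.05 (4.14% and 1.95% of named genes), and 0 passed the adjusted threshold. Higher were Heyl (0.61 ± 0.20), Greb1 (0.60 ± 0.40), Wnt4, the signal that drives epithelial conversion of the mesenchyme (0.49 ± 0.30), and Hes5, a Notch target (0.58 ± 0.44). The median of this list was 0.07 with normexp and loess and 0.09 without replicate 2.

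Among the markers of cell types that hold these regulators, those of the bud epithelium were higher in the labelled mutant, although 0 markers of any list passed the adjusted threshold. Of 12 bud epithelium markers, 9 lay above 0 and 3 below (median 0.54), against 58.4% of named genes above 0, and 8 were higher and 0 lower at an unadjusted p under 0.05, against 4.14% and 1.95% of named genes. Their mean level was 11.15 to 11.29 in the labelled mutants and 10.63 to 10.87 in the labelled wild types, which do not overlap. How often the mean of other gene lists of this size separates the groups was not examined. The median by replicate was 0.31, 0.59, 0.58 and 0.49. The marker lists were chosen with earlier results of these data known, so their counts and mean levels are a description and not a test. The simple epithelial keratins Krt18, Krt8 and Krt7 had mean ratios of 1.14 ± 0.20, 0.96 ± 0.13 and 1.23 ± 0.30. Among the early nephron markers, 4 of 5 lay above 0 (median 0.21), and 2 were higher at an unadjusted p under 0.05. Their mean levels overlapped, at 10.79 to 11.09 in the labelled mutants and 10.46 to 10.81 in the labelled wild types. Of 7 nephron progenitor markers, which share Pax2 and Pax8, 1 lay above 0 and 6 below (median -0.14), with overlapping mean levels of 12.34 to 12.52 in the labelled mutants and 12.31 to 12.68 in the labelled wild types. The part of the share of bud epithelium in the ratios of Gata2, Gata3 and Emx2 was not tested.

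Other tissues that express Gata2, Gata3 or Tfap2b were also checked through their markers. All 8 markers of sympathetic neurons and adrenal medulla were measured, 6 of them well above background on every array in both channels, with a median ratio of -0.12 (0.03 without replicate 2) and mean levels of 8.18 to 8.33 in the labelled mutants and 8.21 to 8.80 in the labelled wild types. Stmn2, a neuronal gene, was lower in 4 of 4 replicates (-0.71 ± 0.33), and was the 1 marker of this list at an unadjusted p under 0.05. Of 6 measured erythroid and mast cell markers, 1 lay above 0 and 5 below, with a median of -0.77 in replicate 2 and of 0.03 to 0.09 in the others. Macrophage markers lay below 0 in 6 of 6 genes (median -0.29), endothelial markers above 0 in 4 of 5 (median 0.06), and stromal markers below 0 in 4 of 6 (median -0.19). Of all named genes, 58.4% lay above 0. At an unadjusted p under 0.05, 3 macrophage and 2 stromal markers were lower (1.95% of named genes), and 1 endothelial marker was higher (4.14%). Of 2 measured glial markers, 1 lay above 0 and 1 below. The 6 markers of gonad, Müllerian tissue and adrenal cortex had a median of 0.03 (-0.01 with normexp and loess), and 1 of them was higher at that p. The part of these cells in the ratios of the 8 genes was not tested.

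**Figure D4:**
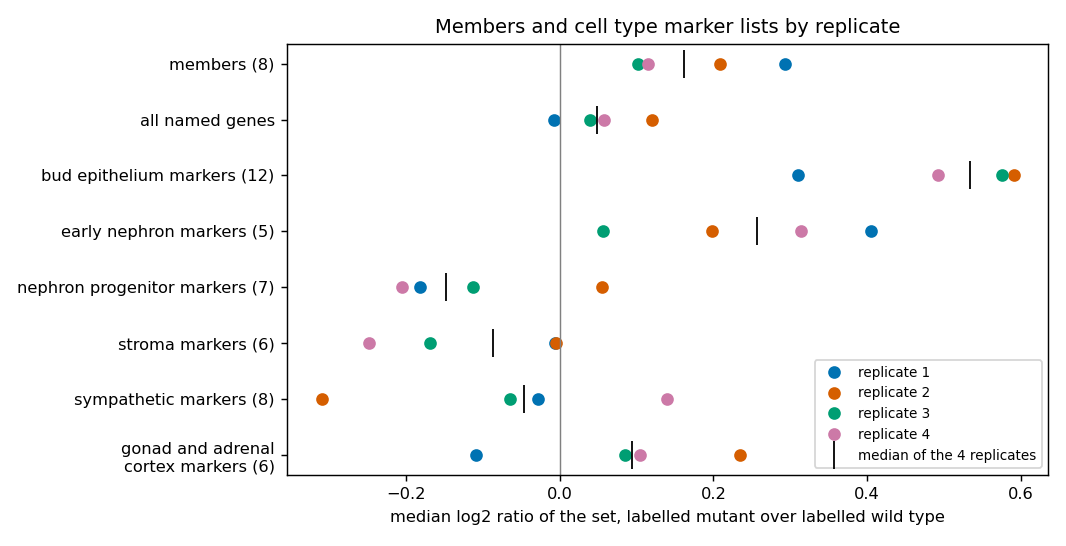
Median log2 ratio (x axis) of the 8 regulators, of all named genes and of the marker lists, with 1 point per replicate and a bar at the median of the 4 points. The bud epithelium points lie between 0.31 and 0.59, to the right of the 8 regulators at 0.10 to 0.29, and replicate 2 is the leftmost point for sympathetic markers.

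The plot of medians by replicate shows that the 8 regulators lay between all named genes and the bud epithelium markers. For the sympathetic markers, the median was -0.31 in replicate 2 and -0.06 to 0.14 in the others. The order of replicates within the 8 regulators was not that within the bud epithelium markers: replicate 1 was the highest in the former and the lowest in the latter.

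For each gene, the named genes with the most similar profile of level over the 8 RNAs were found among 17106 by Pearson correlation, given as a description because the RNAs of a replicate share arrays. Gata3 was most like Pdgfa (r = 0.972), a growth factor, and Slc7a8 (0.949), an amino acid transporter. Gata2 was most like Nhsl1 (0.980) and Yaf2 (0.974), and Pou3f3 like Itprid2 (0.988) and Zfp317 (0.984). Chmp5 (0.959) was among the genes most like Emx2. Pax2 was most like Olfr1414 (0.984) and Serpina3n (0.980), and Pax8 like Iah1 (0.993) and Abce1 (0.989). Lhx1 was most like Hmgb2 (0.986) and Fndc3c1 (0.943), and Tfap2b like Neurod2 (0.997) and Rgs11 (0.989). None of the 8 regulators is among these genes, since they were left out of the search. These are the highest of 17106 correlations over only 8 RNAs, and whether the genes are expressed together was not tested.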

How the data were processed

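Spots of the two-colour Agilent arrays were quantified by the authors in Feature Extraction 10.5.1.1, per the file headers, which subtracted background and normalized the dyes within each array. The deposited log ratio is the log10 of Cy5 over Cy3 processed signal. The deposited intensity columns are processed signals, used for levels, and median spot and background signals, used in an alternative. The deposited flags mark control, dim, saturated and outlying spots. The authors' deposited table holds 496 log2 ratios, of which 414 equal the sign-turned mean scanner ratio within 0.01 and 0 the ratio as labelled.

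Log10 ratios were multiplied to log2 and turned to the labelled mutant over the labelled wild type. Outlier spots were left out, spots of a probe were averaged, and so were the 2 arrays of a replicate, which hold the same RNAs in both dyes and thereby pair them. Ratios were tested against 0 with limma 3.58.1 (lmFit and eBayes, two-sided, R 4.3.3), and p-values were adjusted by Benjamini-Hochberg across the 39520 tested probes. Levels were scaled between arrays with Aquantile. The brightest probe stood for a gene in lists. Names came from RefSeq accessions, and 25097 probes had a symbol. The fit was tested on simulated data. Alternatives were the background correction, centring, dim filter, dye orientation, slide, array weights, replicate block and leaving out each replicate. The limma p-values set the mean of these 4 pairs against the spread between them, which the fit draws toward the spread of all tested probes.

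Every probe of the 8 genes is described. From each list the counts and up to 4 genes of smallest p are named, and for each gene the 2 genes of most similar profile, of which 1 is not reported here. The genes and lists were chosen with earlier results of these data known.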

Additional observations from a re-analysis of the deposited data

Results flagged for a closer look

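The Pax8 ratio of replicate 2, 0.46 on the log2 scale, stood far from the other 3, with a gap of 0.860 of the range of the 4 replicates, above the 95% critical value of Dixon's test for 4 samples. It was the 1 such value among 39 groups of 4 examined over the 13 probes, and chance flags about 1 in 20 groups.

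Tfap2b probe 1 lay just below 0 in both replicates of slide 1 (-0.03 and -0.05) and at 0.00 and 0.07 in those of slide 2. The difference of slide 2 minus slide 1 was 0.078 and did not pass the limma test (adjusted p = 0.970). Tfap2b probe 2 had the opposite order, with a difference of -0.058 (limma adjusted p = 0.976).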

How the results depend on the processing

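No probe of the 8 genes passed the adjusted threshold under any of the 14 alternatives with a test. The probes called over the whole array, 7 as reported, were 1 with normexp at offset 50, 1 at offset 16, 2 with no dim filter, 13 with a strict one, 456 with array weights, 1 with Cy5 arrays alone, 36 with Cy3 arrays alone, 1 with the slide as a block, and 0 to 10 with a replicate left out (0 without replicate 1, 3 or 4). Entering the 8 arrays with a replicate block gave 133. Probes at an unadjusted p under 0.05, 2374 as reported, were 7439 with array weights, 6086 with Cy3 arrays alone and 905 (without replicate 3) to 3127 with a replicate left out. Among the 13 probes this count, 5 as reported, was 2 at either normexp offset, 3 with Cy3 arrays alone, and 1 (without replicate 3) to 4 with a replicate left out. The median of the 8 genes was 0.10 at either offset, 0.065 over all probes of a gene, -0.20 with the sign turned, and 0.16 to 0.25 with a replicate left out. Gata2 probe 1 stayed at an unadjusted p under 0.05 in 14 of 14 alternatives, with adjusted p from 0.0650 to 0.903, and Gata3 in 9 of 14 (0.0534 to 0.903). Of 207 values of the 13 probes under alternatives, 180 kept their direction and 27 changed it. Pax2 turned to 0.057 with Cy3 arrays alone and 0.081 on slide 2 (left-out range -0.11 to 0.010). Pax8 turned to -0.028 and -0.031 at the offsets, -0.079 with array weights, -0.081 with Cy5 arrays alone and -0.10 on slide 2 (left-out range -0.080 to 0.11). Emx2 probe 2 turned to 0.12 with array weights, 0.067 with Cy3 arrays alone and 0.15 on slide 2 (left-out range -0.095 to 0.18), and Pou3f3 probe 2 to 0.060 with Cy3 arrays alone. Tfap2b probe 1 turned to 0.0049 with array weights, 0.15 with Cy5 arrays alone and 0.035 on slide 2 (left-out range -0.029 to 0.012). Tfap2b probe 2 turned to -0.017 and -0.020 at the offsets, -0.0053 with median centring, -2.1e-06 with array weights, -0.22 with Cy5 arrays alone and -0.0077 on slide 2. Tfap2b probe 3 ranged from -1.04 to 0.15 with a replicate left out and did not enter under the strict filter. The causes were not tested.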
